A study of Mus musculus with 31 samples.

Results

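The genes that load and display peptides on MHC class II, together with their master regulator Ciita, were followed in mouse monocytes from healthy and tumor-bearing animals. The 8 genes were taken by symbol from the gene count table: the surface chain genes H2-Aa, H2-Ab1 and H2-Eb1, the invariant chain gene Cd74, the peptide-editing genes H2-DMa, H2-DMb1 and H2-DMb2, and Ciita. All 8 were among the 24411 entries of the table, and all 8 were among the 12337 genes that passed the filter on low counts. Gene expression had been measured by RNA-seq in 9 libraries of C57BL/6J mice, 3 from healthy animals' blood (healthy blood), 3 from the blood of animals with a subcutaneous tumor of Lewis lung carcinoma, a transplantable mouse lung tumor cell line (LLC blood), and 3 from such tumors (LLC tumor). All 9 were sorted as Ly6C-hi monocytes with the phenotype CD11b+ Ly6G- Ly6Chi MHC-II-, so the cells of every group had been chosen for little class II protein on their surface. The labels give no age, do not say whether animals were pooled or whether the LLC blood and LLC tumor libraries came from the same mice, and name no batch. P-values here measure the spread between the libraries of a group, which may in part be technical. The other 22 of the 31 samples in the series were not analysed here.

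MHC class II molecules present peptides from endosomes to CD4 T cells. In C57BL/6 mice the surface molecule is I-A, made of the alpha chain from H2-Aa and the beta chain from H2-Ab1. H2-Eb1 encodes the beta chain of I-E, which does not reach the surface in this strain because its alpha chain gene is defective. Newly made chains assemble on the invariant chain, the product of Cd74, which fills the groove until endosomal proteases cut it down. The H2-DM heterodimer, an alpha chain from H2-DMa with a beta chain from H2-DMb1 or H2-DMb2, then removes the remaining fragment and helps load peptide. CIITA, the product of Ciita, does not bind DNA itself: it is recruited by RFX, CREB and NF-Y proteins seated on the X and Y boxes of these promoters, and it switches on the whole group of genes. Resting Ly6C-hi monocytes carry little class II, while B cells and dendritic cells express it strongly and at all times.

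Windows from 250 bases before to 50 bases after the start site were found in the RefSeq promoter table (GRCm38.p6) for 5 of the 8 genes. The stretches below are those of the 4 among these 5 genes whose window held the extended Y box TGATTGG. They are shown because CIITA acts through such boxes. They are aligned on that Y box, which begins after 50 bases, and those of H2-Eb1 and H2-DMb1 also hold the X box pattern. Each has 80 bases, lies wholly before the start site and is written 5′ to 3′ on the strand of the gene: H2-Aa at chr17:34287844-34287923 on the minus strand, and on the plus strand H2-Eb1 at chr17:34305756-34305835, H2-DMb1 at chr17:34153078-34153157 and H2-DMb2 at chr17:34145107-34145186. Capitals mark TGATTGG, the Y box with its flank, and an X box pattern where it was found.
H2-Aa: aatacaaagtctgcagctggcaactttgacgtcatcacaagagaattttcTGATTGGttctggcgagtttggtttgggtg
H2-Eb1: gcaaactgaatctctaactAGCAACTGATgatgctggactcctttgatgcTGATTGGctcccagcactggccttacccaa
H2-DMb1: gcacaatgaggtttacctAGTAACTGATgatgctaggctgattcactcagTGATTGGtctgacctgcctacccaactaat
H2-DMb2: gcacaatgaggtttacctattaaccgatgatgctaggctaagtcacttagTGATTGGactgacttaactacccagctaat

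Each motif was searched on both strands of 32851 windows of 300 bases. The Y box core CCAAT was in 37.4% of all windows, TGATTGG in 7.82%, and the X box pattern, AGNNACNGA followed by T, in 2.68%. TGATTGG holds CCAAT on its other strand, so these matches overlap, and it was chosen after the windows had been seen. An X box pattern followed on the same strand by a Y box 10 to 30 bases further on was in 0.0335% of windows, 11 in all, among them H2-Eb1 (23 bases between the boxes), H2-DMb1 (24) and the related gene H2-Eb2 (23). The H2-Aa and H2-DMb2 windows held the Y box but not these letters of the X box, and neither of the 2 windows of H2-DMa held the X box pattern or TGATTGG. A match is a description of letters and not of binding.

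Total counts were 10457492 to 20706412 per library. At this depth 3 counts, taken as the floor, were worth 0.145 to 0.287 CPM (counts scaled to the library total), and every library of every member lay above it. The lowest was H2-DMb2 in LLC tumor 2 with 17 counts. Levels, and statements on the overlap of groups, are in CPM without the scaling factors (TMM) that the fit adds. These factors were 0.798 in LLC tumor 1 and 0.968 to 1.07 in the other libraries. Folds and tests come from an edgeR quasi-likelihood fit over all 9 libraries. P-values were adjusted over all 12337 genes, with a call at an adjusted p under 0.05. The 8 markers fixed for the labelled cell type, such as Ccr2, Csf1r, Ly6c2 and F13a1, were present in every library and summed to 11578 to 13217 CPM in blood and 9682 to 11003 CPM in LLC tumor. A macrophage list of 8 genes, with C1qa and Mrc1 among them, summed to 1383 to 1578 CPM in healthy blood, 785.5 to 833.7 CPM in LLC blood and 2483 to 3543 CPM in LLC tumor. From LLC blood to LLC tumor 6 of these 8 were called higher and 1 lower (median log2 fold change 5.02). Of the 8 markers of the labelled type, 2 were called higher and 5 lower (median -0.70). Of all genes, 29.6% were called higher and 31.7% lower in that step.

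The class II genes and their regulator were not called in the same comparisons, and differences between their steps were not tested. The surface chains and Cd74 fell 2.31-fold to 3.68-fold from healthy blood to LLC blood and showed no further called change in LLC tumor. The H2-DM genes H2-DMa and H2-DMb1 were lower in LLC blood without a call (log2 fold changes -0.56 ± 0.18 and -0.49 ± 0.17). From LLC blood to LLC tumor they were called lower, by steps of like size (-0.78 ± 0.19 and -0.63 ± 0.17). Ciita was 42.5 to 48.7 CPM in LLC blood against 23.6 to 42.3 CPM in healthy blood, a difference that was not called, and it fell 4.28-fold from LLC blood to LLC tumor.

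In counts, 4 of the 8 genes were called lower in LLC blood against healthy blood and 0 higher, where 9.61% of all tested genes were called lower and 14% higher. At an unadjusted p under 0.05 edgeR put 7 lower and 1, Ciita, higher, while DESeq2 called 6 lower and limma-voom 4 lower, with 0 higher in both. Over all genes DESeq2 called 1572 lower and 1885 higher, and limma-voom 1298 lower and 1812 higher. The percentages given here are for the edgeR calls, and no share of all genes was taken at an unadjusted p. The step from LLC blood to LLC tumor had 3 called lower and 0 higher, against 31.7% of all genes lower and 29.6% higher, so that share was close to the background. The same 3, Ciita, H2-DMa and H2-DMb1, were lower and 0 higher by DESeq2, limma-voom and an unadjusted p. Over all genes DESeq2 called 3546 lower and 4027 higher in this step, and limma-voom 3893 lower and 3680 higher. In LLC tumor against healthy blood all 8 were called lower (all 8 also by DESeq2 and 7 by limma-voom) and 0 higher by any of these, against 33% of all genes lower and 33.5% higher. Over all genes DESeq2 called 3808 lower and 4378 higher there, and limma-voom 4106 lower and 4122 higher. The median log2 fold changes of the 8 genes were -1.17, -0.32 and -1.32 in these comparisons, and those of all tested genes were -0.01, -0.03 and -0.0025. The comparisons share libraries, so they are not independent of each other.

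**Figure D1:**
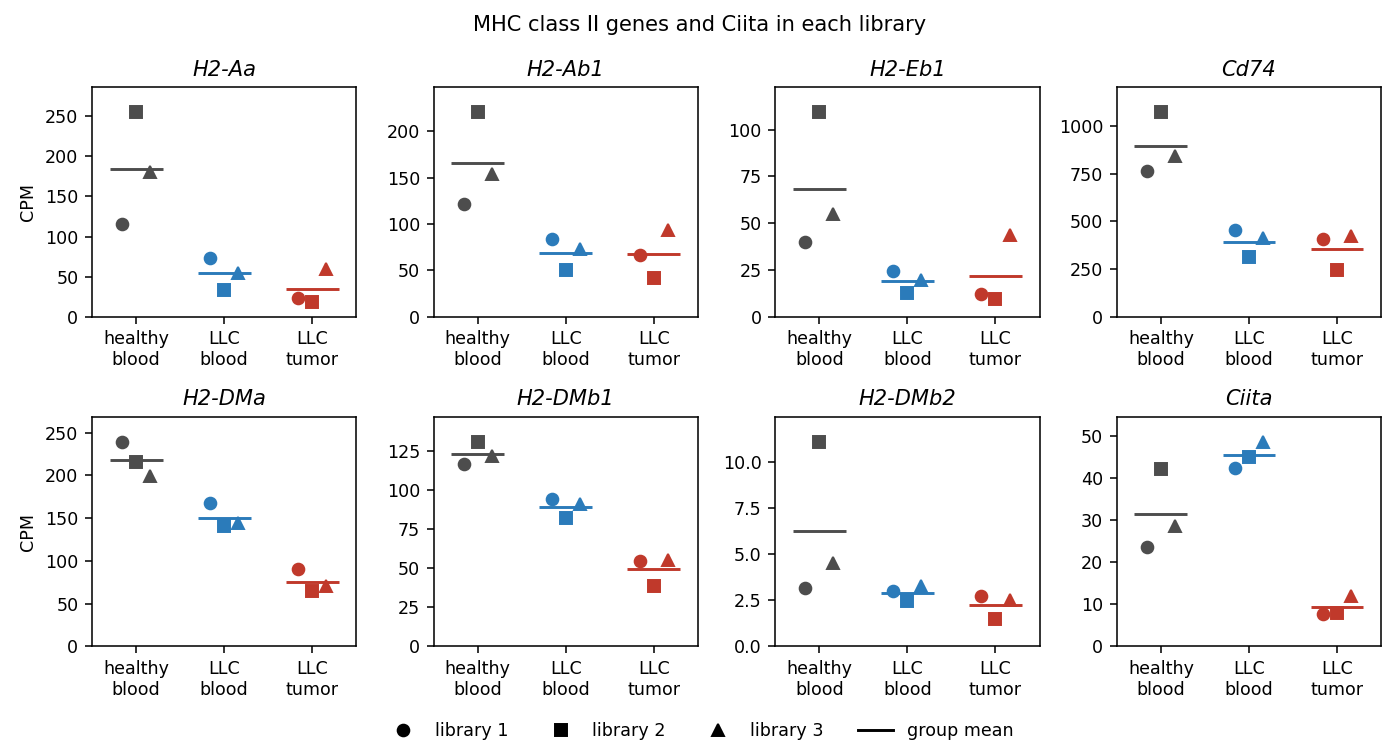
CPM of each of the 8 genes in the 9 libraries, 1 panel per gene with its own axis from 0; marker shapes give the library number and lines the group means. H2-Aa, H2-Ab1, H2-Eb1 and Cd74 drop between healthy blood and LLC blood, H2-DMa and H2-DMb1 are lower in LLC blood and lower again in LLC tumor, and Ciita is lowest in LLC tumor (7.76 to 12.0 CPM).

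H2-Aa, the I-A alpha chain gene (chr17:34282744-34287823, GRCm38.p6), was at 115.7, 255.4 and 180.4 CPM in healthy blood 1, 2 and 3. It was at 73.7, 33.8 and 54.6 CPM in LLC blood and at 23.9, 18.7 and 59.5 CPM in LLC tumor. Every healthy blood library was above every other library, and the LLC blood and LLC tumor libraries overlapped. H2-Aa fell by 1.80 ± 0.45 (SE) on the log2 scale in LLC blood (3.47-fold lower, adjusted p 0.0188). From LLC blood to LLC tumor the log2 fold change was -0.47 ± 0.45 (adjusted p 0.386), and from healthy blood to LLC tumor it was -2.27 ± 0.46 (adjusted p 0.00185). The order of the group means was thus healthy blood, LLC blood, LLC tumor, with the last pair not distinguished beyond their spread.

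H2-Ab1, the I-A beta chain gene (chr17:34263227-34269418), was at 121.4, 221.0 and 153.8 CPM in healthy blood, 83.7, 50.2 and 72.6 CPM in LLC blood and 66.8, 42.2 and 93.9 CPM in LLC tumor. Here too the healthy blood libraries stood above all others, and the tumor libraries spanned the range of LLC blood. The gene fell by 1.29 ± 0.33 on the log2 scale in LLC blood (adjusted p 0.0195). Between LLC blood and LLC tumor the change was 0.19 ± 0.33 (adjusted p 0.64). Against healthy blood, H2-Ab1 was lower in LLC tumor by a log2 fold change of -1.11 ± 0.33 (adjusted p 0.0135).

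H2-Eb1 (chr17:34305867-34316674) was at 40.0, 109.5 and 55.0 CPM in healthy blood, 24.5, 12.6 and 19.7 CPM in LLC blood and 12.4, 9.57 and 43.9 CPM in LLC tumor. The tumor libraries were far apart: LLC tumor 3 was above healthy blood 1, while LLC tumor 1 and 2 were below every LLC blood library in CPM. LLC tumor 1 and LLC blood 2 lay close, with TMM factors of 0.798 and 1.07, so the order of these libraries depends on the scaling. H2-Eb1 fell by 1.88 ± 0.56 in LLC blood (adjusted p 0.0392), with no overlap between these groups. Its change from LLC blood to LLC tumor was 0.40 ± 0.57 (adjusted p 0.562), and it was -0.52 without LLC tumor 3. From healthy blood to LLC tumor it was -1.48 ± 0.56 (adjusted p 0.0396), a call lost in 8 of 20 other settings, among them without healthy blood 2 (adjusted p 0.152). LLC tumor 3 was also the highest tumor library for H2-Aa and H2-Ab1, the other surface chains.

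Cd74, which makes the invariant chain and also a surface receptor for the cytokine MIF, was at 764.0, 1073 and 844.1 CPM in healthy blood. It was at 452.9, 313.0 and 412.8 CPM in LLC blood and at 406.3, 244.1 and 422.1 CPM in LLC tumor. All healthy blood libraries were above all others, and LLC blood and LLC tumor overlapped. Cd74 fell by 1.21 ± 0.26 on the log2 scale in LLC blood (2.31-fold lower, adjusted p 0.0102). This was the one blood call among the 8 genes that held under all 20 other settings tried, with log2 fold changes of -1.41 to -1.06. The change from LLC blood to LLC tumor was 0.09 ± 0.26 (adjusted p 0.788), and that from healthy blood to LLC tumor was -1.12 ± 0.26 (adjusted p 0.00405).

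The blood calls of the surface chains rested on few libraries. Of the 9 fits that omitted a library, 4 lost the calls of H2-Aa and H2-Ab1 and 5 that of H2-Eb1, while all 3 stayed lower in LLC blood in each of these fits. The number of members called in blood went from 4 to 2 without healthy blood 2 (Cd74 lower and Ciita higher) and to 1 without healthy blood 3, LLC blood 2 or LLC blood 3. It rose to 6 without LLC tumor 1 or LLC tumor 2. Calls over all genes moved as well, from 2917 with every library to 1873 without healthy blood 2. They were 1697, 1494 and 1577 without healthy blood 3, LLC blood 2 and LLC blood 3, and 5064 and 3133 without LLC tumor 1 and LLC tumor 2.

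H2-DMa (chr17:34119693-34139101), the alpha chain gene of the peptide editor, was at 239.7, 216.1 and 199.6 CPM in healthy blood. It was at 167.2, 140.4 and 143.9 CPM in LLC blood and at 90.3, 64.4 and 70.8 CPM in LLC tumor. No library of one group overlapped with another group, in the order healthy blood, LLC blood, LLC tumor. From LLC blood to LLC tumor H2-DMa fell by 0.78 ± 0.19 on the log2 scale (1.71-fold lower, adjusted p 0.00552), and from healthy blood by 1.34 ± 0.19 (adjusted p 0.000199). In LLC blood against healthy blood its change of -0.56 ± 0.18 missed the threshold (adjusted p 0.0539), and it passed in 10 of the 20 other settings, all in the same direction.

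H2-DMb1 (chr17:34153191-34160229), a beta chain gene, was at 117.0, 131.1 and 121.9 CPM in healthy blood, 94.1, 82.4 and 91.3 CPM in LLC blood and 54.8, 38.8 and 55.4 CPM in LLC tumor. The groups were again separate and in the same order as for H2-DMa. It fell by 0.63 ± 0.17 from LLC blood to LLC tumor (adjusted p 0.0103), and its log2 fold change from healthy blood was -1.12 ± 0.17 (adjusted p 0.000339). The blood change was -0.49 ± 0.17 (adjusted p 0.0631), and it passed in 8 of 20 other settings.

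H2-DMb2 (chr17:34143229-34151553), the neighboring beta chain gene, had few counts: 3.18, 11.1 and 4.54 CPM in healthy blood, 3.04, 2.45 and 3.26 CPM in LLC blood and 2.73, 1.5 and 2.54 CPM in LLC tumor. Healthy blood 2 stood alone, and the other 8 libraries lay between 1.5 and 4.54 CPM. Its changes of -1.13 ± 0.46 in LLC blood (adjusted p 0.109) and -0.17 ± 0.49 from there to LLC tumor (adjusted p 0.785) were not called, and that between healthy blood and LLC tumor was (-1.29 ± 0.48, adjusted p 0.0362). Without healthy blood 2 the last was -0.63 and no longer called (adjusted p 0.179). The counts of H2-DMb1 and H2-DMb2 were not whole numbers in 9 of 9 libraries and their sum was whole in all 9 (within 0.0015 counts), so reads had been split between this pair and the value of H2-DMb2 is uncertain. With both summed, the drop from LLC blood to LLC tumor was 0.61 on the log2 scale (adjusted p 0.0142).

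Ciita (chr16:10480014-10531064) was at 23.6, 42.3 and 28.8 CPM in healthy blood, 42.5, 45.2 and 48.7 CPM in LLC blood and 7.76, 8.07 and 12.0 CPM in LLC tumor. The 3 groups did not overlap in CPM, although healthy blood 2 lay just under LLC blood 1. These libraries had TMM factors of 1.037 and 1.052, so their order depends on the scaling. Ciita fell by 2.10 ± 0.23 on the log2 scale from LLC blood to LLC tumor (4.28-fold lower, adjusted p 4.14e-05) and by 1.60 ± 0.23 from healthy blood to LLC tumor (3.03-fold lower, adjusted p 0.000201). Both calls held under all 20 other settings, with ranges of -2.29 to -1.73 and -1.78 to -1.01. In LLC blood against healthy blood the change was 0.50 ± 0.21 and was not called (adjusted p 0.112). Without healthy blood 2 it was 0.71 (adjusted p 0.0268).

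**Figure D2:**
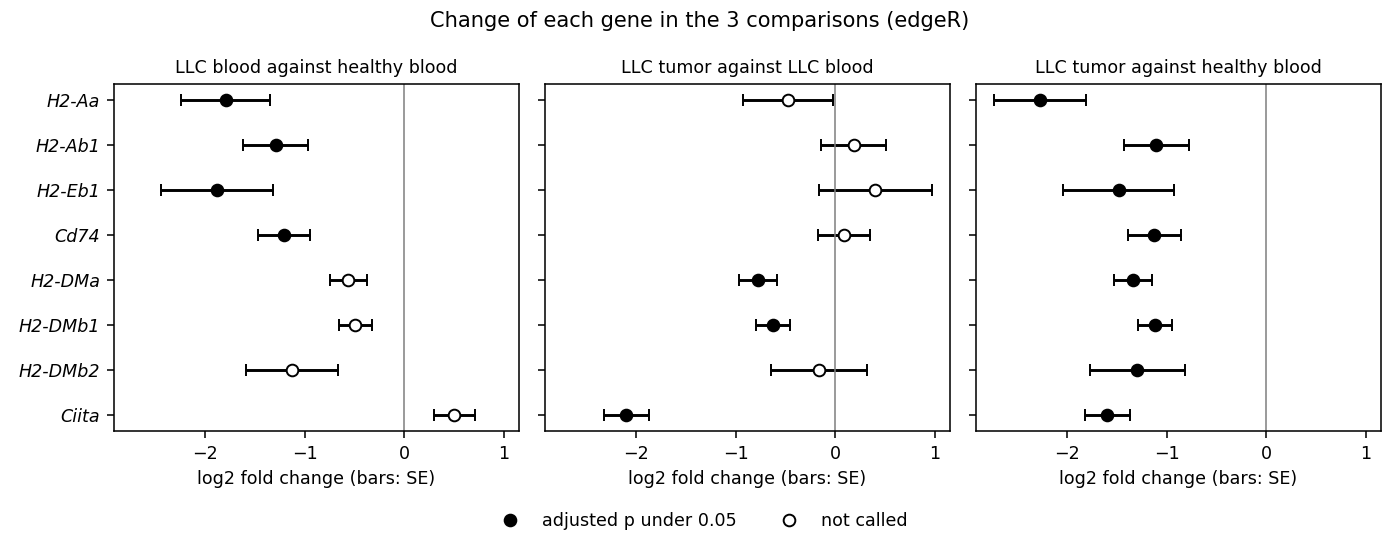
Log2 fold change of each gene in the 3 comparisons, with standard errors as bars; filled points were called at an adjusted p under 0.05 (edgeR). In LLC blood against healthy blood the filled points are H2-Aa, H2-Ab1, H2-Eb1 and Cd74, in LLC tumor against LLC blood they are H2-DMa, H2-DMb1 and Ciita, and in LLC tumor against healthy blood all 8 are filled and below 0.

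The regulator and its target were also compared within each library as a ratio of counts, which does not depend on the scaling of the library. Ciita counts per H2-Aa count were 0.204, 0.165 and 0.159 in healthy blood, 0.576, 1.34 and 0.893 in LLC blood, and they were 0.325, 0.431 and 0.202 in LLC tumor. Every LLC blood library was above every library of the other groups. Per Cd74 count the ratios were 0.0309 to 0.0394 in healthy blood, 0.0938 to 0.144 in LLC blood and 0.0191 to 0.0330 in LLC tumor, again highest in LLC blood. H2-DMa counts per H2-Aa count were 0.846 to 2.07 in healthy blood, 2.27 to 4.16 in LLC blood and 1.19 to 3.77 in LLC tumor. The ratios compare each gene with itself across groups and say nothing of levels between genes, since transcript length enters them.

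Across the 9 libraries, log2 CPM of H2-Aa, H2-Ab1, H2-Eb1 and Cd74 had pairwise Pearson r of 0.910 to 0.979, and H2-DMa with H2-DMb1 had 0.973. Ciita had r of 0.363 to 0.564 with the surface chains and Cd74, and 0.762 and 0.802 with H2-DMa and H2-DMb1. These values are a description over libraries that fall into 3 groups and differ between and within groups in depth and in the cell type markers given next.

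B cells express class II genes strongly, and 14 of their marker genes were summed in each library. The sums came to 28.6, 275.4 and 38.7 CPM in healthy blood 1, 2 and 3, 39.0, 39.0 and 44.3 CPM in LLC blood, and 9.66, 15.1 and 15.4 CPM in LLC tumor. Healthy blood 2 stood far above every other library. Its Cd79a, part of the B cell receptor, was at 48.5 CPM against 0.572 and 2.02 CPM in healthy blood 1 and 3, and Ms4a1 was at 25.4 CPM there. In LLC blood Cd79a and Ms4a1 were at 0 to 0.553 CPM, Pax5 and Blk were at 0 in all libraries, and most of the sum came from Cd22 (18.2 to 27.8 CPM) and Cd79b (9.34 to 13.3 CPM). In LLC tumor Cd79a, Ms4a1, Blk, Fcer2a and Pou2af1 were at 0 in all 3 libraries.

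The members differed in how far healthy blood 2 stood out. Against the mean of healthy blood 1 and 3, its level was 2.30-fold for H2-Eb1, 2.88-fold for H2-DMb2, 1.73-fold for H2-Aa, 1.61-fold for H2-Ab1, 1.62-fold for Ciita, 1.33-fold for Cd74, 1.10-fold for H2-DMb1 and 0.984-fold for H2-DMa. H2-Ob, which encodes a chain of H2-DO, an inhibitor of H2-DM made mainly by B cells, was 7.51-fold higher there (31.3 CPM against a mean of 4.16 CPM). Healthy blood 1 and 3 had B cell sums at or below those of LLC blood. The mean of those libraries was 2.74-fold that of LLC blood for H2-Aa, 2.00-fold for H2-Ab1, 2.51-fold for H2-Eb1 and 2.05-fold for Cd74, and 0.576-fold for Ciita. Both libraries were above all 3 of LLC blood for each of the surface chains and for Cd74, and both were below all 3 for Ciita. Cd79a and Ms4a1 were likewise 4.62-fold and 7.16-fold the LLC blood mean in them, at means of 1.30 and 1.18 CPM.

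A fit with the log2 sum of the B cell markers as a further term gave log2 fold changes in LLC blood of -1.52 for H2-Aa (adjusted p 0.0431), -1.10 for H2-Ab1 (0.0462) and -1.13 for Cd74 (0.027), all still called. H2-Eb1 was at -1.44 and no longer called (adjusted p 0.0838), and Ciita was at 0.71 and was called higher (adjusted p 0.0154). Over all genes, 875 were called lower and 1444 higher in LLC blood with this term, against 1185 and 1732 without it. In LLC tumor against LLC blood Ciita and H2-DMa kept their calls in that fit, at -1.73 and -0.88, and H2-DMb1, at -0.61, lost its call (adjusted p 0.0575). In LLC tumor against healthy blood, where the B cell sums of the groups also differ, 3 of the 8 genes were called with this term: Ciita (-1.01), H2-DMa (-1.49) and H2-DMb1 (-1.09). The genes that lost their call there were at -1.53 for H2-Aa (adjusted p 0.0638), -0.88 for Cd74 (0.101), -0.57 for H2-Ab1 (0.327), -0.35 for H2-Eb1 (0.700) and -0.0099 for H2-DMb2 (0.989). Over all genes, 2920 were called lower and 3060 higher in that comparison with the term, against 4072 and 4136 without it.

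Conventional dendritic cells were followed with 9 markers, which summed to 205.5 and 216.4 CPM in healthy blood 1 and 3 and slightly less in healthy blood 2, against 139.3, 118.8 and 120.9 CPM in LLC blood and 29.7, 89.5 and 99.0 CPM in LLC tumor. The groups did not overlap, and the drop from healthy blood to LLC blood ran in the same direction as that of the surface chains. In LLC blood 6 of the 8 tested markers were called lower, where 9.61% of all tested genes were. Cd209a, a lectin of monocyte-derived and type 2 dendritic cells, was at 35.2, 27.8 and 41.1 CPM in healthy blood and 7.08, 1.73 and 3.09 CPM in LLC blood. Flt3, the receptor for the growth factor of dendritic cells, was at 42.5, 33.2 and 33.2 CPM against 28.4, 20.3 and 18.6 CPM. Zbtb46, a transcription factor that marks conventional dendritic cells, stayed below 1 CPM in all libraries, at 0.490 to 0.799 CPM in healthy blood against 0.138 to 0.478 CPM in LLC blood. In LLC tumor Flt3 and Cd209a were lower still (2.35 to 3.28 and 0.177 to 0.632 CPM), and Fscn1, an actin bundling gene high in mature dendritic cells, made up much of the sum at 11.2, 63.5 and 73.5 CPM. The 5 plasmacytoid dendritic cell markers summed to 2.14 to 5.33, 0.483 to 1.43 and 0.271 to 0.620 CPM.

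With the log2 sum of the dendritic cell markers as a further term, 5 members were called in LLC blood. Over all genes, 2379 were called lower and 2370 higher there with this term, against 1185 and 1732 without it. H2-Aa, H2-Ab1 and Cd74 stayed lower there at -1.55, -1.36 and -1.41, H2-DMa and H2-DMb1 became called at -0.85 and -0.69, and H2-Eb1 lost its call at -1.49 (adjusted p 0.0905). Within groups the marker sum varied little in blood (118.8 to 139.3 CPM in LLC blood) and most in LLC tumor (29.7 to 99.0 CPM). The slope of the term was thus set mainly by the tumor libraries, where Fscn1 made up much of the sum. For that reason this fit cannot adjust the blood comparison for dendritic cells, and their part in the blood changes was not tested. In LLC tumor against healthy blood 4 members were called with this term: Cd74, Ciita, H2-DMa and H2-DMb1. Over all genes, 3531 were called lower there, against 4072 without the term. The other members remained lower without a call, at -1.69 for H2-Aa, -1.26 for H2-Ab1, -0.60 for H2-Eb1 and -2.06 for H2-DMb2 (adjusted p 0.0719 to 0.616). Fewer class II-positive cells in a sort and less class II RNA per monocyte cannot be told apart in bulk libraries.

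**Figure D3:**
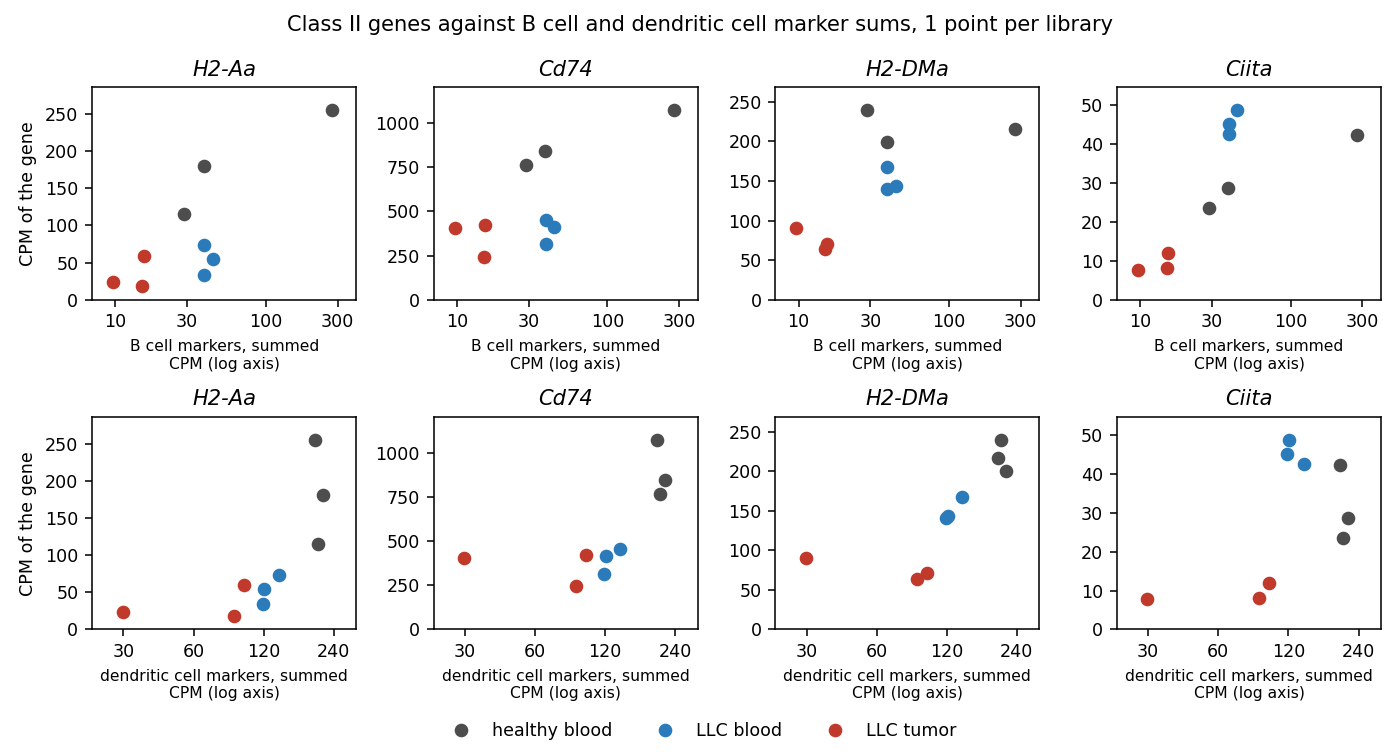
CPM of H2-Aa, Cd74, H2-DMa and Ciita against the summed CPM of 14 B cell markers (top, log axis) and 9 dendritic cell markers (bottom, log axis), 1 point per library. The 3 LLC blood libraries lie at B cell sums of 39.0 to 44.3 CPM, close to healthy blood 1 and 3, yet below them for H2-Aa and Cd74 and above them for Ciita.

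Markers of T and NK cells, neutrophils and Ly6C-low monocytes moved with the groups as well. The first, 7 genes, summed to 148.9 to 368.5 CPM in healthy blood, 19.6 to 35.9 CPM in LLC blood and 0.778 to 3.9 CPM in LLC tumor. The second, 6 genes, summed to 4.36 to 78.3, 55.9 to 267.9 and 27.3 to 123.7 CPM. The third, 6 genes, summed to 2257 to 2380, 1648 to 2303 and 786.0 to 1027 CPM. Of these 6, 4 were called lower and 2 higher in LLC tumor against LLC blood, where 31.7% and 29.6% of all genes were. Their part in the results was not tested.

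Among the other class II chain and DO genes, H2-Ob was at 4.22, 31.3 and 4.11 CPM in healthy blood, 3.54, 1.31 and 2.22 CPM in LLC blood and 1.63, 1.15 and 1.30 CPM in LLC tumor. Its fall in LLC blood (-2.53 ± 0.79, adjusted p 0.0455) was -0.91 without healthy blood 2 and not called (adjusted p 0.207). H2-Oa, the other DO chain gene, was at 0.620 to 5.34 CPM over all libraries, highest in healthy blood 2, and was called lower only in LLC tumor against healthy blood (-1.48 ± 0.59, adjusted p 0.0492), a call lost without healthy blood 2 (-0.67, adjusted p 0.267). H2-Eb2 and the pseudogene H2-Ea-ps did not pass the filter, and H2-Ea-ps was at 0 in all 9 libraries.

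The genes of the DNA-bound proteins that recruit CIITA came next. Of the 7 genes for the promoter-bound complex, 0 were called in LLC blood by edgeR (adjusted p 0.131 to 0.814), DESeq2 or limma-voom, and 1, Nfyc, had an unadjusted p under 0.05. Rfx5, the DNA-binding part of RFX, was at 18.9, 21.01 and 18.1 CPM in healthy blood, 20.4, 18.5 and 15.4 CPM in LLC blood and 9.12, 14.6 and 16.3 CPM in LLC tumor, with no call by edgeR in any comparison. Its change from healthy blood to LLC tumor was -0.38 ± 0.16 (adjusted p 0.0535), and it was called lower in 6 of 20 other settings. From LLC blood to LLC tumor 2 of the 7 rose and 3 fell, where 29.6% of all genes were called higher and 31.7% lower, so these shares were near the background. Among them were the NF-Y subunit gene Nfyb (0.87 ± 0.15), Rfxap (0.53 ± 0.13) and Creb1 (-0.70 ± 0.11). The rise of Rfxap was not called with either marker term described above.

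Among 5 coactivator genes through which CIITA works, 3 rose in LLC blood, where 14% of all genes did. They were the histone acetyltransferase genes Ep300 (187.2, 177.7 and 155.5 CPM in healthy blood against 261.9, 315.1 and 329.1 CPM in LLC blood, log2 fold change 0.77 ± 0.10) and Crebbp (0.60 ± 0.12), and the chromatin remodeling ATPase gene Smarca4 (0.55 ± 0.06). Their calls held in all 20 other settings. Against LLC blood, 2 of the 5 fell in LLC tumor and 1 rose, near the shares of all genes (31.7% and 29.6%). Ep300 fell by 0.67 ± 0.10, and the acetyltransferase gene Kat2b by 0.41 ± 0.09 (adjusted p 0.00278). The arginine methyltransferase gene Carm1 rose by 0.59 ± 0.14 (adjusted p 0.00548), a call lost with library totals only (adjusted p 0.094). Crebbp (0.13 ± 0.12) and Smarca4 were not called.

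Interferon-gamma is the classical inducer of Ciita, through its receptor, JAK kinases and IRF1. Of 8 genes of this input, 1 was called in LLC blood by edgeR, the feedback inhibitor gene Socs1, which was lower (-1.44 ± 0.30, adjusted p 0.00875) at 1.88 to 2.28 CPM against 4.84 to 6.76 CPM. That count was near the share of all genes called lower there, 9.61%. DESeq2 called Ifngr2, Irf1 and Irf2 lower as well. From LLC blood to LLC tumor 2 rose and 4 fell, against 29.6% and 31.7% of all genes. The receptor gene Ifngr1 went from 736.2, 741.1 and 735.4 CPM to 345.8, 308.4 and 331.8 CPM (-0.95 ± 0.12, adjusted p 0.000133). Jak2 rose by 1.25 ± 0.12.

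Of 4 myeloid transcription factor genes that act on Ciita, 0 were called in LLC blood by edgeR (adjusted p 0.0681 to 0.559). Irf4 alone had an unadjusted p under 0.05 there and was called lower by DESeq2 and limma-voom. From LLC blood to LLC tumor 3 fell and 1 rose, where 31.7% and 29.6% of all genes did. Irf4, which binds with PU.1 at composite sites in myeloid cells, went from 75.3, 68.3 and 71.5 CPM to 8.40, 4.79 and 4.84 CPM (-3.36 ± 0.24, adjusted p 3.54e-06). Prdm1, which encodes the repressor BLIMP-1, went the other way, from 16.7, 14.4 and 15.1 CPM to 128.2, 80.5 and 93.8 CPM (2.95 ± 0.24, adjusted p 6.95e-06). Irf8 fell by 0.77 ± 0.22 (adjusted p 0.0119). Whether any of these bears on Ciita was not tested.

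The endosomal enzymes that prepare peptides and cut the invariant chain did not follow the class II chains. Of 6 genes, 2 rose in LLC blood (14% of all genes did), Ctsl (0.76 ± 0.14) and the thiol reductase gene Ifi30 (0.57 ± 0.12, not called without healthy blood 3). From there to LLC tumor 4 rose, where 29.6% of all genes did, and 1, Ifi30, fell, where 31.7% did. Ctsl, a cathepsin gene, went from 51.4, 77.9 and 70.8 CPM to 941.6, 1275 and 1087 CPM (4.23 ± 0.15, adjusted p 1.44e-07). Lgmn, which encodes asparaginyl endopeptidase, rose by 2.74 ± 0.23 and Ctsd by 1.73 ± 0.19. Ctss, the main protease for the last steps of invariant chain cleavage in B cells and dendritic cells, was not called in any comparison (adjusted p 0.226 to 0.758).

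The costimulatory genes parted from the chains in the tumor too. In LLC blood 0 of 3 were called by edgeR (adjusted p 0.245 to 0.767), DESeq2 or limma-voom, and 0 had an unadjusted p under 0.05. The step to LLC tumor had 2 that rose and 1 that fell, against 29.6% and 31.7% of all genes. Cd80, a ligand of CD28 and CTLA-4, went from 10.3, 8.37 and 10.8 CPM to 142.6, 104.9 and 121.1 CPM (3.86 ± 0.25, adjusted p 1.58e-06). Cd86 rose by 2.15 ± 0.20, and Cd40 fell by 0.87 ± 0.29 (adjusted p 0.0247), a call lost in 4 of 20 other settings. Cd83, whose product keeps class II at the surface by opposing its ubiquitination, was at 11.3, 12.3 and 12.0 CPM in healthy blood, 3.16, 1.11 and 2.70 CPM in LLC blood and 168.7, 58.8 and 55.1 CPM in LLC tumor. The groups did not overlap, with LLC blood lowest and LLC tumor highest. Cd83 fell by 2.39 ± 0.61 in LLC blood (adjusted p 0.0208), a call lost with limma-voom (adjusted p 0.126) and without healthy blood 3, LLC blood 2 or LLC blood 3 (0.0578, 0.0824 and 0.067). From there it rose by 5.63 ± 0.62 in LLC tumor (adjusted p 4.53e-05), where its log2 fold change against healthy blood was 3.24 ± 0.52 (adjusted p 0.000439), and 1.09 with the dendritic cell marker term.

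**Figure D4:**
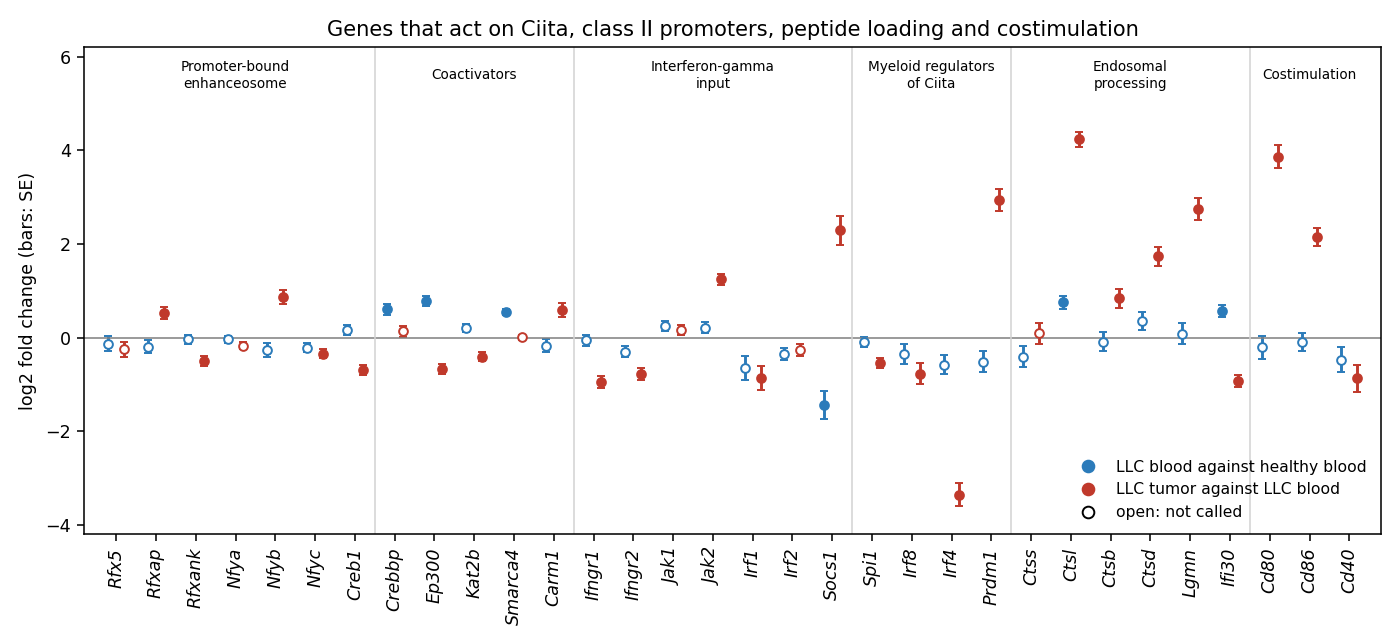
Log2 fold change with standard error of the genes that act on Ciita, on class II promoters, on peptide processing and on costimulation, in LLC blood against healthy blood (blue) and LLC tumor against LLC blood (red); open points were not called. Most blue points lie near 0, with Ep300, Crebbp, Smarca4, Ctsl and Ifi30 called higher and Socs1 lower, while the red points spread from -3.36 (Irf4) to 4.23 (Ctsl). Cd83 is not plotted.

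By likeness of pattern over the 9 libraries, the genes closest to the mean of H2-Aa, H2-Ab1, H2-Eb1 and Cd74, among 9711 candidates, were Ppp1r11 (r 0.955), Rpl21, Zfp330, Mrpl14, Pla2g16, Rps29, Rplp0 and Thoc7 (r 0.917). Of these Pla2g16, a phospholipase gene, had the largest change in LLC blood, from a mean of 20.2 to 6.89 CPM (-1.58, adjusted p 0.00231). The genes closest to Ciita were Ubxn8 (r 0.990), Sec13, Acsl5, Apobec3, Atxn7l3b, Isoc2a, Rab27a and Arl5a (r 0.983). Rab27a, a vesicle transport GTPase gene, came nearest in size, with a log2 fold change of 0.49 in LLC blood (adjusted p 0.00749) and -1.64 from there to LLC tumor (adjusted p 1.56e-06). The likeness was the Pearson correlation of log2 CPM with 0.5 added, and no member was a candidate.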

How the data were processed

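The authors deposited a table of estimated counts per gene (not normalized, partly fractional) and a table of CPM values for 10693 of these genes. The submitters' processing notes name Trim Galore 0.6.7, cutadapt 3.4, STAR 2.6.1d, Salmon 1.9.0, edgeR and the build mm10 without giving roles. Per the labels, RNA was extracted with TRIzol and made into TruSeq libraries. Column heads with BM were read as blood monocyte, since the sample titles name blood. Per library, 100% of the deposited CPM values were whole multiples of 1 read, and the count test on those reads called 2584, 6792 and 7236 genes in LLC blood against healthy blood, LLC tumor against LLC blood and LLC tumor against healthy blood, against 2917, 7566 and 8208 from the count table.

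After rounding of the estimated counts, edgeR 4.0.16 under R 4.3.3 fitted all 9 libraries with group as the only term, TMM factors (0.798 to 1.07), filterByExpr, the quasi-likelihood test and Benjamini-Hochberg adjustment. CPM in the text are over all entries of the count table. The test was checked on simulated data. DESeq2 1.42.0, limma-voom (limma 3.58.1), other scalings, no filter, the 6 libraries compared, a replicate block, marker sums as covariates, the summed H2-DM beta genes and leaving out each library were the alternatives, and the recovered reads joined them once the values were known. The members, the gene and marker lists and the promoter motifs were chosen with earlier results of these data known. The 8 members are named in full. Of each pathway list, at most 3 genes were named, those with the largest change among the called with a mean of at least 20 CPM, plus H2-Oa, H2-Ob and Rfx5. Ctss, Socs1, Cd83 and single marker genes given in addition were chosen after their values were seen. Some genes that are counted or summed in the lists are not reported here by name, and the plot of pathway genes leaves them out. Positions and sequences are from RefSeq tables of GRCm38.p6.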

Additional observations from a re-analysis of the deposited data

How the results depend on the processing

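The cause was not tested for any shift given here without one. The count of members called in LLC tumor against LLC blood was 2 or 3 under every setting, and in LLC tumor against healthy blood it moved from 8 to 3 with the B cell marker term and to 4 with the dendritic cell marker term. Genes called in all went there from 8208 to 5980 and to 7164 with these terms. With 1 library left out the count of members called was 1 to 6 in LLC blood against healthy blood. Genes called in that comparison numbered 4889 in the 6 libraries compared, 4749 with the dendritic cell marker term and from 1494 with LLC blood 2 omitted to 5064 with LLC tumor 1 omitted.

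No called change of a member reversed. Among changes that were not called, those of LLC tumor against LLC blood turned for H2-Ab1 (-0.021) and Cd74 (-0.13) when libraries were scaled by their totals, which put the all-gene median at -0.23; relative to that median they were 0.21 and 0.09. Cd74 (-0.22) and Rfx5 (0.018) turned with the dendritic cell marker term, and H2-DMb2 (0.60), H2-Oa (0.39) and H2-Ob (0.88) with the B cell marker term. With 1 library left out H2-Ab1 ranged from -0.057 to 0.47, Cd74 from -0.11 to 0.34, H2-Eb1 from -0.52 to 0.78 and H2-DMb2 from -0.41 to 0.10. Rfx5 turned with the dendritic cell marker term in LLC blood (0.078) and in LLC tumor against healthy blood (0.10), and H2-Oa in the latter with the B cell marker term (0.054). The share of called genes that were higher was 59.4% in LLC blood and 46.3% under upper-quartile factors there, and 48.3% in LLC tumor against LLC blood and 36.3% with library totals only; for LLC tumor against healthy blood, whose median moved to -0.17 with library totals only, it was 50.4% and 40.6%.

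Replicate numbers were not taken to pair the libraries, since same-numbered libraries deviated together with r of 0.297, 0.181 and 0.073 in blood and -0.137 to 0.120 elsewhere. With the replicate block 4, 3 and 7 members and 2788, 7455 and 8092 genes were called in the 3 comparisons. In LLC blood H2-Eb1 lost its call with the block (adjusted p 0.0582) and H2-DMa gained one (0.0169), and in LLC tumor against healthy blood H2-DMb2 (0.0786) and H2-Oa (0.093) lost theirs, as H2-Ob did in LLC blood (0.118). Counts of 17 to 181 limit H2-DMb2.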
